A study of Homo sapiens with 18 samples.

Results

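The genes described here are 53 genes of mitosis and the spindle, chosen by name from a list of cyclins, mitotic kinases, spindle checkpoint proteins, kinetochore proteins, kinesins, cytokinesis factors, spindle assembly factors and condensin subunits. All 53 were found among the 36576 genes of the expression table, and all 53 were among the 12224 genes tested, which averaged 1 FPKM or more (fragments per kilobase of gene and per fixed number of fragments in the library) over the 9 input libraries. Their own means ran from 6.30 FPKM for CDC25C to 178.5 FPKM for TPX2. The cells are labelled A549, a human lung adenocarcinoma line grown in DMEM/F-12. They were left untreated (control), or given 10 mg/L of BPQD or 100 mg/L of TiO2 (titanium dioxide) for 24 h, BPQD being a nanomaterial that the study's title and labels name by this abbreviation. The 18 libraries of the series are, in each group, 3 of input RNA and 3 of RNA pulled down with an antibody against N6-methyladenosine (m6A), a methyl mark on mRNA. The doses of the materials differed, so BPQD and TiO2 are compared only as given. The labels do not say whether replicates came from separate cultures, and the p-values then measure only the spread between these libraries, which may be technical.

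Mitosis begins when cyclin B with the kinase CDK1 drives chromosome condensation and spindle building, and it ends when the anaphase-promoting complex with CDC20 destroys securin and cyclin B, so that separase can cut cohesin. Many of these genes are transcribed in a wave late in the cell cycle. That wave depends on a pair of promoter elements, the cell cycle genes homology region (CHR), bound by the MuvB complex with B-MYB and FOXM1, and CCAAT boxes, bound by NF-Y. In a bulk sample, a higher level can come from more cells in G2 and mitosis or from more RNA per such cell, and these cannot be told apart here.

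The promoters of 8 members are printed to show these elements for some of the patterns of change described below. Genes called higher under BPQD and not called under TiO2 are not among the 8. All 8 hold both elements, as do 26 of the 45 members with a promoter entry in the wider window counted below. HMMR and DLGAP5 rose under both materials, MKI67, CDCA8 and ASPM rose under BPQD and fell under TiO2, KIF4A rose under TiO2, PLK1 fell under TiO2, and ESPL1 fell under both. Each line holds the 150 bases before the gene's start in RefSeq (GRCh38.p14, the first start listed), 5′ to 3′ on the gene's strand, and capitals mark CHR matches (TTTGAA or TTCGAA, either strand) and CCAAT matches (CCAAT, either strand, so also ATTGG).
HMMR: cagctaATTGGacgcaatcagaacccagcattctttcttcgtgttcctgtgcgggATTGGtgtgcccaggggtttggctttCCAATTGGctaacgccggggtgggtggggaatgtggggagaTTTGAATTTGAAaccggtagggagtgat
DLGAP5: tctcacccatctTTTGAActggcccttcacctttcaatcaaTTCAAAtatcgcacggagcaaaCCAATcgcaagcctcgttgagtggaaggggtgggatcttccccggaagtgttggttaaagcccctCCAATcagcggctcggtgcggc
MKI67: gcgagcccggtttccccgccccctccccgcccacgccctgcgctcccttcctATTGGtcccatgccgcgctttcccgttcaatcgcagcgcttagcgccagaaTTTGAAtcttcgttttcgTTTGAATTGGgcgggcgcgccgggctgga
CDCA8: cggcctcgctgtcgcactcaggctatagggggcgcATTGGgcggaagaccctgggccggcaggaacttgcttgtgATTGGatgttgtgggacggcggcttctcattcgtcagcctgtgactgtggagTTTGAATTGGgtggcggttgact
ASPM: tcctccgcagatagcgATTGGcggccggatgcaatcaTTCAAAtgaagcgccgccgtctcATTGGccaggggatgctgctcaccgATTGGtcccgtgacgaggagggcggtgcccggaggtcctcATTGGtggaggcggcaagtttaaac
KIF4A: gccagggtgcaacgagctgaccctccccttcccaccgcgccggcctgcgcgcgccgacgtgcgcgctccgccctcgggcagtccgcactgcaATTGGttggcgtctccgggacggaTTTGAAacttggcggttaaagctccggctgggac
PLK1: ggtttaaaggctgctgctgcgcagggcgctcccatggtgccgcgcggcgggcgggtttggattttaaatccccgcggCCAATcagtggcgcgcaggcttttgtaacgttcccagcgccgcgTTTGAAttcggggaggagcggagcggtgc
ESPL1: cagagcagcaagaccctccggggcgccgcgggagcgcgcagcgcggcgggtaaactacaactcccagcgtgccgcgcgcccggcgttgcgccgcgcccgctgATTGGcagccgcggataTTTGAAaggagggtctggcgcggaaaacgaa

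These stretches lie, in GRCh38.p14, for HMMR at chr5:163460482-163460631 (plus strand), DLGAP5 at chr14:55191586-55191735 (minus strand), MKI67 at chr10:128126424-128126573 (minus strand) and CDCA8 at chr1:37692366-37692515 (plus strand). Those of the other 4 are ASPM at chr1:197146670-197146819 (minus strand), KIF4A at chrX:70289954-70290103 (plus strand), PLK1 at chr16:23678739-23678888 (plus strand) and ESPL1 at chr12:53268149-53268298 (plus strand). In MKI67 and CDCA8 a CHR match runs into a CCAAT match on the other strand, and they share 1 base. That CHR match of MKI67 lies 29 to 24 bases before the start and that of CDCA8 lies 23 to 18 bases before it. KIF4A, PLK1 and ESPL1 each have 1 CHR match, which begins 34, 29 and 31 bases before the start. HMMR holds a pair of CHR matches side by side, from 28 to 17 bases before the start. ASPM has its only CHR match on the opposite strand, beginning 113 bases before the start and lying between CCAAT matches. DLGAP5 has 1 CHR match on each strand here, which begin at positions -138 and -109 from the start.

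Of the 53 members, 45 had an entry in the promoter table, and BUB3, BIRC5, RACGAP1, TTK, AURKA, TPX2, FOXM1 and UBE2C had none. In the window from 250 bases before to 50 after the start, 34 of the 45 promoters (75.6%) held a CHR match, against 16.6% of all 27305 promoters in the table and 10.9% of the promoters of tested genes. A CCAAT match stood in 32 of 45 (71.1%), against 35.7% of all promoters and 37.5% of those of tested genes. Both stood in 26 of 45 (57.8%), against 6.58% and 4.81%. An E2F match (TTTCCCGC or TTTGGCGC, either strand) stood in 3 of 45 (6.67%), against 2.31% and 4.11%. The members with and without a CHR match are few, and their counts are given only as a description: under BPQD, 21 of 34 with a match rose and 1 fell, and 4 of 11 without a match rose. Under TiO2, 10 of the 34 rose and 7 fell, and 3 of the 11 rose and 1 fell. By the same test, 20.6% of all genes tested rose and 23.4% fell under BPQD, and 17.3% rose and 20.5% fell under TiO2. Whether a CHR match goes with a rise was not tested. A match says that these letters are in the window and not that a factor binds there.

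The depth of each library is unknown, because the values are FPKM and not counts. Correlations of log2(FPKM + 1) between libraries of a group ran from 0.980 to 0.983, and between groups from 0.966 to 0.975, across the genes tested. Genes with clone names that resemble ribosomal RNA took 1.48% to 1.5% of all FPKM in control libraries, 0.660% to 0.668% under BPQD and 0.708% to 0.719% under TiO2. The epithelial keratins KRT8, KRT18 and KRT7 had control means of 324, 581 and 297 FPKM, with the summed epithelial list at 1157 to 1244 FPKM in control, 855 to 875 under BPQD and 956 to 1051 under TiO2, and 5 of its 6 genes averaged 1 FPKM or more. KRT19 was at most 0.624 FPKM and the 4 alveolar type II markers SFTPA1, SFTPB, SFTPC and NKX2-1 at or under 0.144 FPKM in every library. CDKN2A, which A549 is known to have lost, was at 19.3 to 27.4 FPKM, which goes against the label. In the leukocyte list PTPRC was at most 0.0346 FPKM, but CD68 took the summed list to 17.6 to 23.1 FPKM under TiO2 against 11.04 to 13.2 in control and 11.7 to 12.7 under BPQD. The fibroblast list summed to 8.30 to 8.72 FPKM in control, 4.84 to 5.34 under BPQD and 5.98 to 6.53 under TiO2, with COL1A2 at most 0.104, and the endothelial list to 3.02 to 3.66, 1.19 to 1.35 and 2.15 to 3.92, nearly all of it CDH5, with PECAM1 at most 0.186. The part of these genes in the results below was not tested.

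Under BPQD, most of the mitosis genes stood above control, led by the kinesin KIF20B, the spindle protein HMMR, cyclin A2 (CCNA2) and the checkpoint protein BUB1B, and only 2 fell. By limma's test on log2(FPKM + 1), with Benjamini-Hochberg adjusted p under 0.05 over all genes tested, 27 of 53 rose, 2 fell and 24 did not pass. Of all genes tested, 20.6% rose and 23.4% fell. The median log2 fold change of the members was 0.17, beside -0.01 over all genes tested. The largest change was 0.44 on the log2 scale.

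Under TiO2, the 53 genes split. Among called members, BUB1, ANLN, DLGAP5 and NDC80 had the largest rises. PLK1, separase (ESPL1), Aurora B (AURKB) and the condensin subunit NCAPD2 had the largest falls. AURKA (0.52) and NUSAP1 (0.24) had high values but did not pass. In all, 15 of 53 rose, 10 fell and 28 did not pass, while 17.3% of all genes tested rose and 20.5% fell, so the share of falling members (18.9%) is near that of all genes. The median log2 fold change was 0.06, beside -0.02 over all genes tested.

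Set directly against TiO2, BPQD libraries had higher levels of 22 members and lower levels of 3, and 28 did not pass. Of all genes tested, 19.0% were higher and 18.6% were lower under BPQD. The median log2 difference was 0.11, beside 0.0032 over all genes. The members are well expressed, and among the 6504 genes that averaged 5 FPKM or more, which include all 53, more genes pass: 26.4% rose and 27.4% fell under BPQD, with 28 and 2 members, and 24.7% rose and 24.0% fell under TiO2, with 15 and 10 members. Read against that background, the share of members that rose under TiO2 (28.3%) is also near that of all genes. Between the materials, at that level 21.1% of genes were higher and 22.5% lower under BPQD, with 23 and 3 members.

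**Figure D1:**
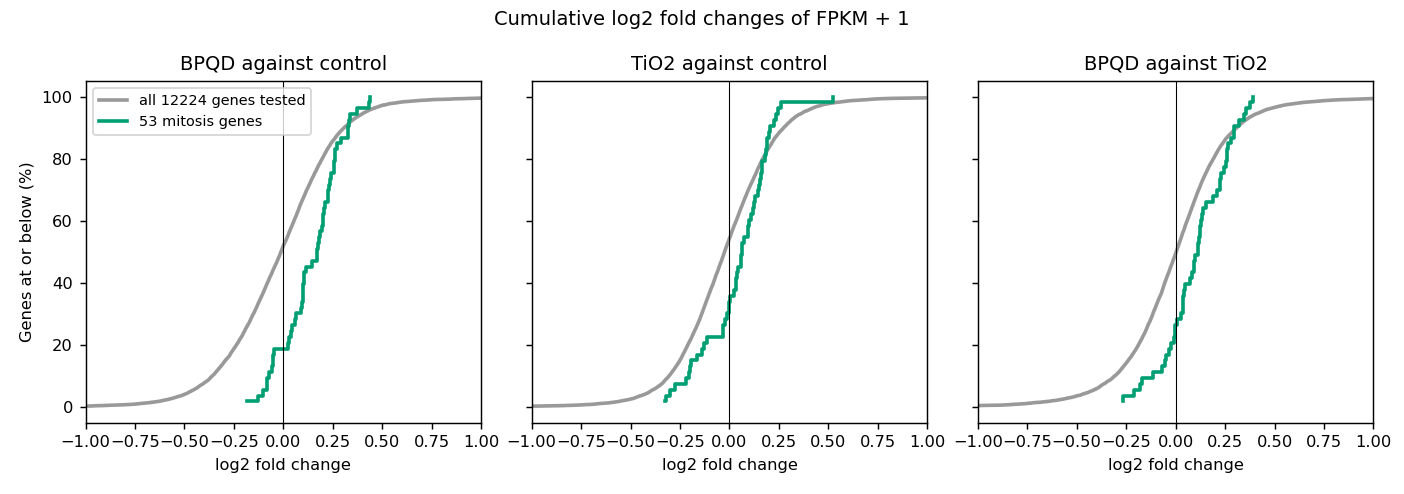
Cumulative share of genes (vertical axis, %) at or below a log2 fold change of FPKM + 1 (horizontal axis), for the 53 mitosis genes (green steps) and all 12224 genes tested (grey line, cut at -1 and 1), in the 3 comparisons. The members lie to the right of all genes under BPQD (median 0.17 against -0.01), close to them under TiO2 (0.06 against -0.02), and to the right in BPQD against TiO2 (0.11).

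The comparisons with control share the control libraries, so their calls are given side by side and are not independent. How often all genes tested show each joint pattern is not given here, so these groups only describe the members. TOP2A, CCNA2, CCNB1, BUB3, TPX2, KIF20B, KIF23, NDC80, ECT2, HMMR and DLGAP5 were called higher in each, and ESPL1 and FOXM1 lower in each. MKI67, CDCA8, ASPM and NCAPD2 were called higher under BPQD and lower under TiO2. For these 4 genes the direct difference between the materials passed, which follows from the opposite calls and is no separate support. The largest group of calls was the 12 genes called higher under BPQD and not called under TiO2: CDK1, BUB1B, MAD2L1, KIF11, KIF20A, KIF14, KIF15, CENPE, CENPF, SMC2, SMC4 and NCAPG. Of these 12, all but CDK1, SMC2, SMC4 and NCAPG were also called higher under BPQD than under TiO2 when the materials were tested directly. BUB1, KIF4A, CENPI and ANLN rose under TiO2 without a call under BPQD, and CDC20, PLK1, AURKB and BIRC5 fell under TiO2 without a call under BPQD. The other 16 passed in no comparison: CCNB2, CDC25B, CDC25C, AURKA, TTK, KIF2C, CENPA, NUF2, SPC25, INCENP, PRC1, RACGAP1, NUSAP1, PTTG1, UBE2C and NCAPH. The means of 25 members stood in the order control, TiO2, BPQD from low to high. The share of all genes tested in that order is not given here.

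The summed FPKM of the 53 members was 1754 to 1801 in control, 1974 to 1990 under BPQD and 1832 to 1849 under TiO2. As a share of all FPKM this was 0.791% to 0.808%, 0.923% to 0.932% and 0.834% to 0.842%, and no library of one group reached the range of another. The members varied little between libraries of a group, with a median coefficient of variation of 2.66% in control, 2.72% under BPQD and 3.62% under TiO2, against 5.25%, 5.42% and 5.29% for all genes tested. All 53 members averaged 5 FPKM or more, as did only 6504 of the 12224 genes tested. The spread was not computed for genes of matched level.

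**Figure D2:**
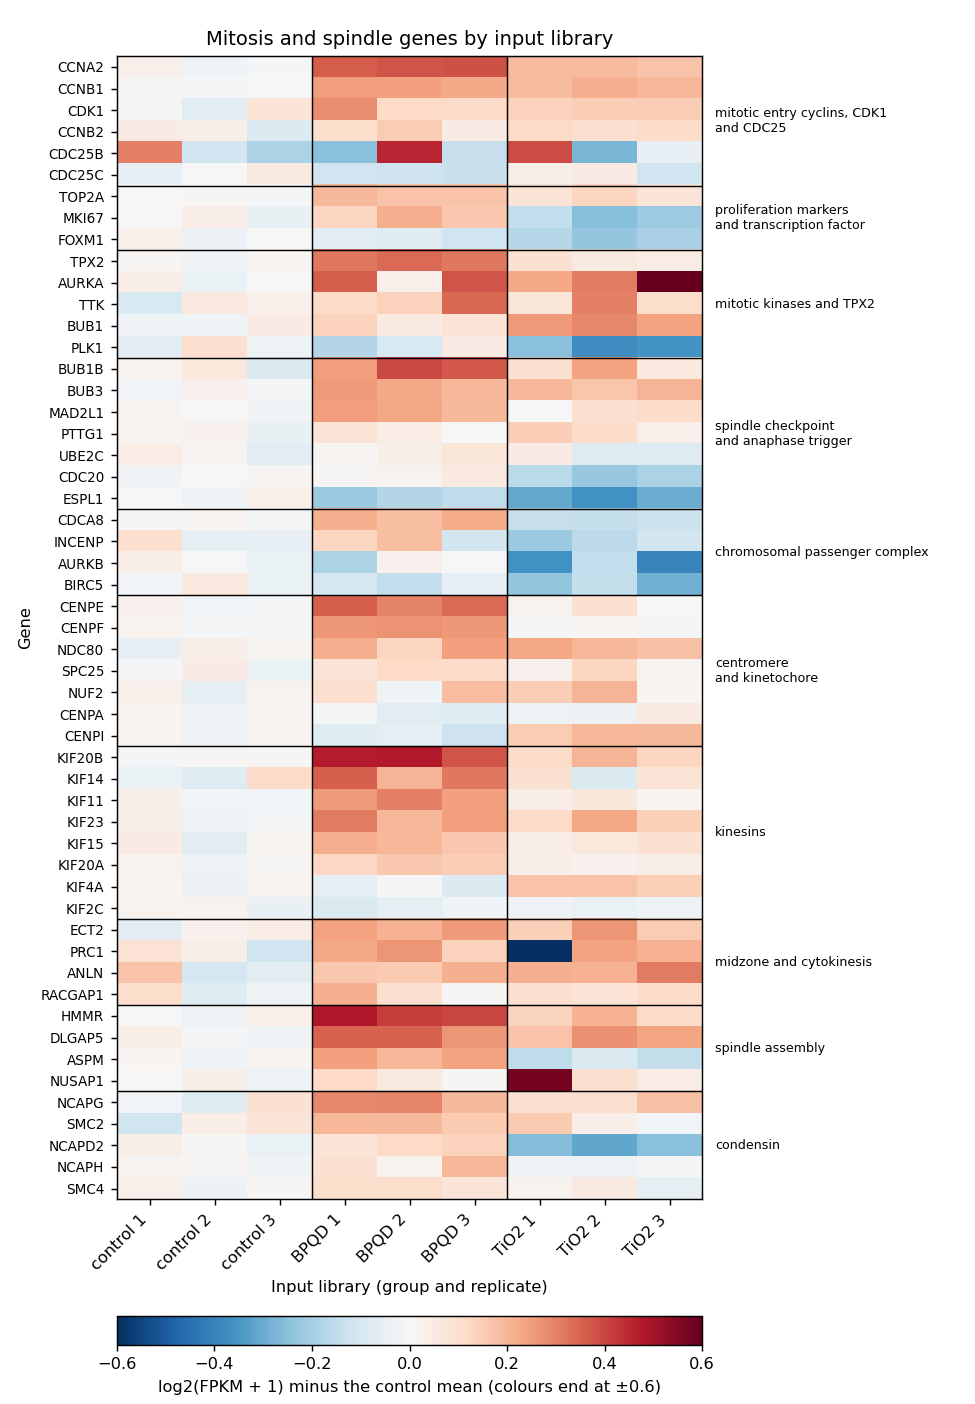
Level of each of the 53 genes in the 9 input libraries, as log2(FPKM + 1) minus the mean of the 3 control libraries (red higher, blue lower, colours ending at 0.6 either way), grouped by role. The BPQD columns are mostly red for the kinesins other than KIF4A and KIF2C (-0.05 each on average), the spindle assembly factors and condensin, and the TiO2 columns are blue for the chromosomal passenger genes, PLK1, CDC20 and ESPL1. Single dark cells mark PRC1 and NUSAP1 in the first TiO2 library and AURKA in the third, and CDC25B is scattered in every group.

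The role groups that follow hold 3 to 8 genes, and a count near the shares of all genes says little about a group. Of all genes tested, 20.6% rose and 23.4% fell under BPQD, and 17.3% rose and 20.5% fell under TiO2. At 5 FPKM or more these were 26.4% and 27.4%, and 24.7% and 24.0%. Of the 6 genes of mitotic entry (cyclins, CDK1 and the CDC25 phosphatases that activate it), 3 rose and none fell under BPQD, and 2 rose and none fell under TiO2. CCNA2, the cyclin of S phase and early mitosis, was at 44.5, 42.8 and 43.3 FPKM in control, at 56.4, 56.9 and 57.0 under BPQD and at 49.8, 49.8 and 49.2 under TiO2. CCNB1, cyclin B1, was at 64.0, 63.4 and 63.9 FPKM in control, at 76.2, 75.7 and 74.8 under BPQD and at 72.8, 74.4 and 73.3 under TiO2. For CCNA2 no groups overlapped, with BPQD highest, and for CCNB1 both exposed groups stood above control and next to each other. CCNA2 rose by 0.37 ± 0.02 (log2, SE, n = 3 per group, limma adjusted p = 1.32e-05) under BPQD and by 0.18 ± 0.02 (adjusted p = 0.000364) under TiO2, and was 0.19 higher under BPQD than under TiO2 (adjusted p = 0.000296). CCNB1 rose by 0.24 ± 0.02 (limma adjusted p = 4.1e-05) and 0.20 ± 0.02 (adjusted p = 0.000123), and the difference between the materials, 0.04, did not pass (adjusted p = 0.113).

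CDK1, the kinase that these cyclins activate, was at 28.4, 27.3 and 30.4 FPKM in control, at 35.0, 31.2 and 31.1 under BPQD and at 31.7, 31.9 and 31.9 under TiO2. Both exposed groups lay above control, and the first BPQD library lay above the rest. Its log2 difference was 0.17 ± 0.05 under BPQD, which passed (limma adjusted p = 0.0331), and 0.15 ± 0.05 under TiO2, which did not (adjusted p = 0.0663). CCNB2 had values of 0.10 and 0.11. CDC25C had -0.13 and -0.01, and its 3 BPQD libraries lay below control (limma adjusted p = 0.0784). CDC25B was scattered in every group, from 20.3 to 34.4 FPKM over the 9 libraries, and its differences of 0.02 and 0.02 had an SE of 0.24.

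Among the proliferation markers and their transcription factor, the 3 genes followed 3 patterns. TOP2A, the topoisomerase that untangles sister chromatids, was at 87.0, 87.1 and 86.1 FPKM in control, at 99.3, 97.8 and 97.7 under BPQD and at 91.9, 94.9 and 91.4 under TiO2. MKI67, which coats mitotic chromosomes, was at 42.5, 43.6 and 41.0 FPKM in control, at 46.3, 49.4 and 47.5 under BPQD and at 38.2, 35.4 and 36.3 under TiO2. FOXM1, an activator of G2 and mitosis genes, was at 21.1, 20.1 and 20.7 FPKM in control, at 19.7, 19.6 and 18.9 under BPQD and at 18.2, 17.4 and 17.9 under TiO2. For all 3 genes the 3 groups did not overlap: TOP2A was above control in both exposures, MKI67 above it under BPQD and below it under TiO2, and FOXM1 below it in both. TOP2A rose by 0.18 ± 0.02 (limma adjusted p = 0.000281) and 0.10 ± 0.02 (adjusted p = 0.00669). MKI67 rose by 0.17 ± 0.04 under BPQD (limma adjusted p = 0.00891) and fell by 0.21 ± 0.04 under TiO2 (adjusted p = 0.00439), and the materials differed by 0.38 ± 0.04 (adjusted p = 0.000248). FOXM1 fell by 0.20 ± 0.03 under TiO2 (limma adjusted p = 0.00144). Under BPQD it fell by 0.08 ± 0.03 (limma adjusted p = 0.046), a call lost in 15 of 20 other settings, where the value ran from -0.10 to -0.03.

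**Figure D3:**
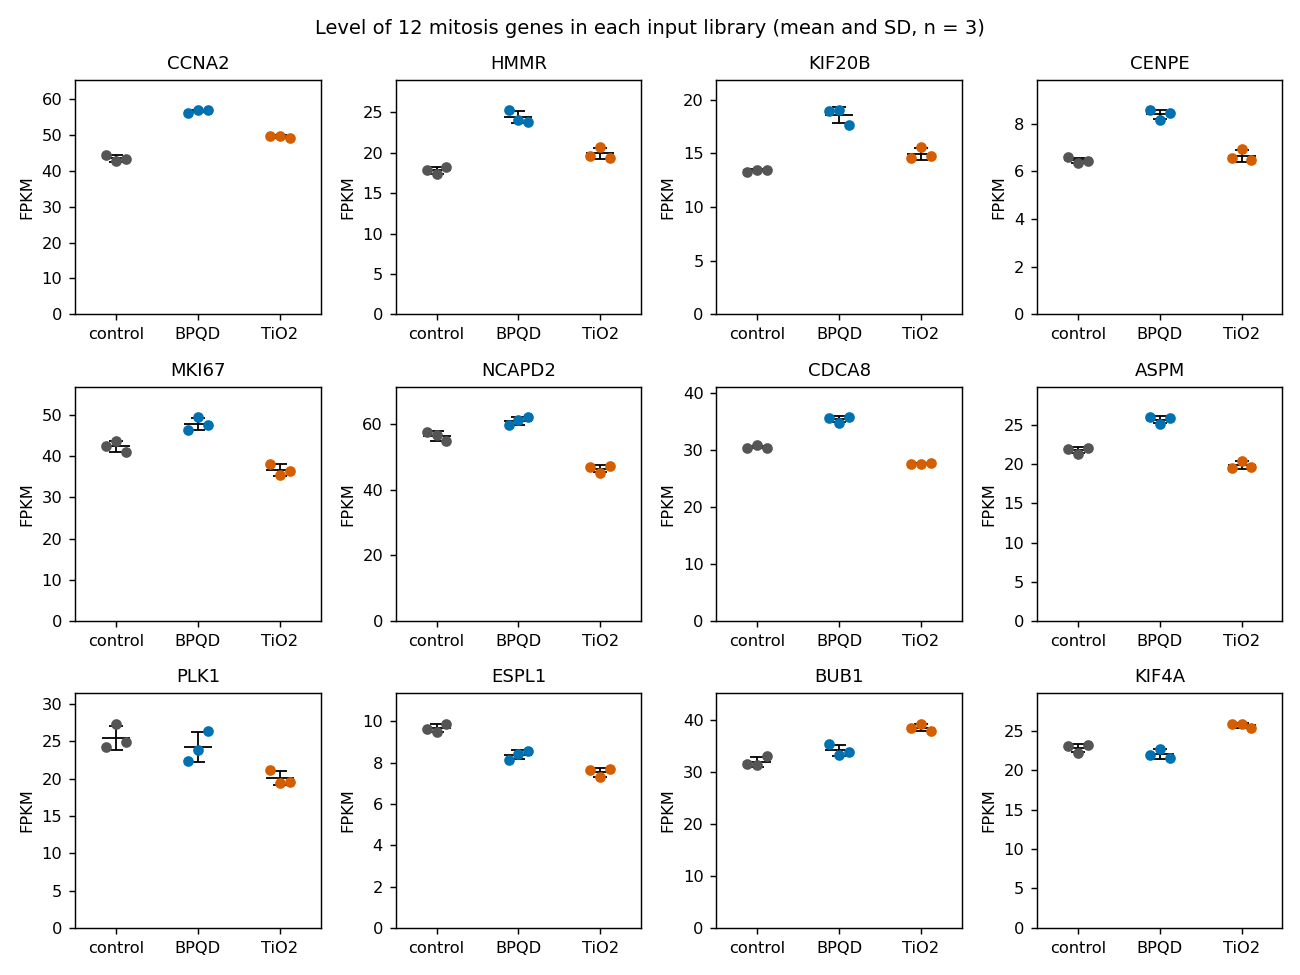
Level (FPKM, vertical axis from 0) of 12 mitosis genes in each of the 9 input libraries (points), with the mean and SD of each group (black bars, n = 3). The top row rose under BPQD, the middle row rose under BPQD and fell under TiO2, and the bottom row holds PLK1 and ESPL1, lowest under TiO2, and BUB1 and KIF4A, highest under TiO2.

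The mitotic kinases and TPX2 moved separately, with 1 of 5 rising under BPQD, and 2 rising and 1 falling under TiO2. PLK1, which acts at centrosomes, kinetochores and the midzone, was at 24.2, 27.3 and 24.9 FPKM in control, at 22.4, 23.8 and 26.3 under BPQD and at 21.2, 19.4 and 19.6 under TiO2. AURKA, the centrosome and spindle pole kinase, was at 29.3, 27.7 and 28.6 FPKM in control, at 37.0, 29.1 and 37.3 under BPQD and at 33.7, 35.5 and 59.4 under TiO2. BUB1, a kinase of the spindle checkpoint, was at 31.4, 31.4 and 33.1 FPKM in control, at 35.3, 33.2 and 33.9 under BPQD and at 38.4, 39.2 and 37.9 under TiO2. The TiO2 libraries were the lowest for PLK1 and the highest for BUB1, and for AURKA the third TiO2 library stood far above the rest. PLK1 fell by 0.33 ± 0.07 under TiO2 (limma adjusted p = 0.00738), against -0.07 under BPQD (adjusted p = 0.433), and BUB1 rose by 0.26 ± 0.03 under TiO2 (adjusted p = 0.000624), against 0.09 under BPQD (adjusted p = 0.0503). The materials differed for both genes, by 0.26 for PLK1 (limma adjusted p = 0.0209) and by -0.17 for BUB1 (adjusted p = 0.00457). AURKA had log2 differences of 0.26 ± 0.20 and 0.52 ± 0.20 and did not pass (limma adjusted p = 0.348 and 0.0798). Without the third TiO2 library the AURKA difference under TiO2 was 0.27.

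TPX2, which activates AURKA on spindle microtubules, was at 160 to 164 FPKM in control, 202 to 206 under BPQD and 168 to 173 under TiO2, and the groups did not overlap. It rose by 0.32 ± 0.02 under BPQD (limma adjusted p = 1.48e-05) and by 0.06 ± 0.02 under TiO2 (adjusted p = 0.0273), the smallest change called among the members in that comparison. The checkpoint kinase TTK had values of 0.20 and 0.16 and passed in neither.

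Of 7 genes of the spindle checkpoint and the anaphase trigger, 3 rose and 1 fell under BPQD, and 1 rose and 2 fell under TiO2, the rising ones being checkpoint genes. The TiO2 shares, 14.3% and 28.6%, are near those of all genes tested (17.3% and 20.5%). BUB1B, the BubR1 checkpoint protein, was at 25.6, 26.4 and 23.7 FPKM in control, at 30.1, 33.4 and 32.9 under BPQD and at 26.9, 30.01 and 26.3 under TiO2. Its BPQD libraries lay above control. Under BPQD the checkpoint genes BUB1B, BUB3 and MAD2L1 rose by 0.34 ± 0.06, 0.23 ± 0.02 and 0.23 ± 0.03 (limma adjusted p = 0.0039, 0.00028 and 0.00147). Under TiO2, BUB3 rose by 0.19 (adjusted p = 0.000851), and BUB1B and MAD2L1 had values of 0.13 and 0.07. CDC20, the activator of the anaphase-promoting complex that the checkpoint holds back, was at 89.4, 90.8 and 91.9 FPKM in control, at 91.2, 92.0 and 94.6 under BPQD and at 81.1, 77.3 and 79.3 under TiO2. ESPL1, separase, was at 9.63, 9.48 and 9.87 FPKM in control, at 8.14, 8.42 and 8.58 under BPQD and at 7.62, 7.30 and 7.68 under TiO2. The TiO2 libraries lay below all others for both genes, and the BPQD libraries lay below control only for ESPL1. CDC20 fell by 0.19 ± 0.02 under TiO2 (limma adjusted p = 0.000734), with 0.03 under BPQD (adjusted p = 0.362). ESPL1 fell by 0.18 ± 0.03 under BPQD (limma adjusted p = 0.00246) and by 0.32 ± 0.03 under TiO2 (adjusted p = 0.000227). Securin (PTTG1), which holds separase inactive, had values of 0.04 and 0.10, and the ubiquitin-conjugating enzyme UBE2C had 0.04 and -0.03. Neither passed.

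The chromosomal passenger complex, which corrects faulty attachments through Aurora B, was lower under TiO2 in 3 of its 4 genes, with INCENP at -0.16 (limma adjusted p = 0.153). AURKB, its kinase, was at 35.0, 33.9 and 33.0 FPKM in control, at 29.6, 34.6 and 33.95 under BPQD and at 26.2, 30.5 and 25.6 under TiO2. CDCA8, borealin, was at 30.4, 30.9 and 30.5 FPKM in control, at 35.6, 34.8 and 35.8 under BPQD and at 27.7, 27.6 and 27.8 under TiO2. The TiO2 libraries lay below control for both, while BPQD lay above control for CDCA8 only. AURKB fell by 0.30 ± 0.08 (limma adjusted p = 0.019), BIRC5 (survivin) by 0.22 ± 0.05 (adjusted p = 0.00854) and CDCA8 by 0.14 ± 0.02 (adjusted p = 0.00129) under TiO2. Under BPQD, CDCA8 rose by 0.21 ± 0.02 (limma adjusted p = 0.000144), and AURKB, BIRC5 and INCENP had values of -0.06, -0.10 and 0.07. CDCA8 differed between the materials by 0.34 ± 0.02 (limma adjusted p = 1.62e-05). AURKB differed by 0.25 (adjusted p = 0.041), although its lowest BPQD library (29.6 FPKM) lay below its highest TiO2 library (30.5 FPKM), and that call was lost in 9 of 20 other settings.

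Of 7 centromere and kinetochore genes, 3 rose under BPQD (42.9%) and 2 under TiO2 (28.6%), and none fell. The TiO2 share is near the 24.7% of all genes at 5 FPKM or more that rose. CENPE, the kinesin that carries chromosomes to the spindle equator, was at 6.59, 6.37 and 6.42 FPKM in control, at 8.56, 8.16 and 8.44 under BPQD and at 6.56, 6.94 and 6.47 under TiO2. NDC80, which binds the microtubule, was at 20.8, 22.2 and 21.8 FPKM in control, at 25.3, 23.7 and 25.8 under BPQD and at 25.6, 24.9 and 24.6 under TiO2. CENPI, a subunit of the inner kinetochore, was at 6.45, 6.20 and 6.41 FPKM in control, at 5.99, 6.07 and 5.75 under BPQD and at 7.18, 7.44 and 7.40 under TiO2. The high libraries were those of BPQD for CENPE, of both exposures for NDC80 and of TiO2 for CENPI. CENPE rose by 0.33 ± 0.03 under BPQD (limma adjusted p = 0.000197), with 0.04 under TiO2, and CENPF, another outer kinetochore protein, rose by 0.26 ± 0.02 (adjusted p = 3.58e-05), with -0.00091 under TiO2. NDC80 rose by 0.20 ± 0.04 under each (limma adjusted p = 0.00416 and 0.00463). CENPI rose by 0.18 ± 0.03 under TiO2 (limma adjusted p = 0.00296), with -0.08 under BPQD (adjusted p = 0.0601), and differed by -0.27 ± 0.03 between BPQD and TiO2 (adjusted p = 0.000456). NUF2 had values of 0.09 and 0.12, SPC25 0.10 and 0.06, and CENPA, the centromeric histone, -0.05 and -0.0031, and none of the 3 passed.

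Kinesins, the motors that slide and carry spindle microtubules, rose in 6 of 8 cases under BPQD and in 3 of 8 under TiO2, and none fell. KIF20B, a motor of cytokinesis, was at 13.3, 13.4 and 13.5 FPKM in control, at 19.0, 19.0 and 17.7 under BPQD and at 14.6, 15.6 and 14.7 under TiO2. KIF4A, a motor on chromosome arms and the midzone, was at 23.1, 22.2 and 23.1 FPKM in control, at 21.9, 22.7 and 21.5 under BPQD and at 25.8, 25.8 and 25.3 under TiO2. No groups overlapped for KIF20B, with BPQD highest, and the TiO2 libraries alone stood apart for KIF4A. KIF20B rose by 0.44 ± 0.04 under BPQD (38.4% in mean FPKM, limma adjusted p = 8.02e-05), the largest change among the 53 in that comparison, and by 0.15 ± 0.04 under TiO2 (adjusted p = 0.0157). KIF14, KIF11, KIF23, KIF15 and KIF20A rose under BPQD by 0.29, 0.27, 0.25, 0.19 and 0.15 (limma adjusted p = 0.0119, 0.000161, 0.00197, 0.00334 and 0.000868), and under TiO2 KIF23 rose by 0.16 (adjusted p = 0.0179), while KIF14, KIF11, KIF15 and KIF20A had 0.03, 0.04, 0.07 and 0.03. KIF4A rose by 0.16 ± 0.03 under TiO2 (limma adjusted p = 0.00318), with -0.05 under BPQD (adjusted p = 0.205), and the materials differed by -0.21 ± 0.03 (adjusted p = 0.000877). KIF2C, which takes microtubules apart, had -0.05 and -0.03 and did not pass.

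In the midzone and cytokinesis group, 1 of 4 genes rose under BPQD and 2 under TiO2, and none fell. ECT2, the activator of RhoA at the cleavage furrow, rose by 0.23 ± 0.04 under BPQD (limma adjusted p = 0.00309) and 0.19 ± 0.04 under TiO2 (adjusted p = 0.0106). ANLN, anillin, a scaffold of the contractile ring, was at 57.7, 47.7 and 48.9 FPKM in control, at 57.5, 57.2 and 59.6 under BPQD and at 59.6, 59.3 and 63.9 under TiO2. Its first control library stood among the BPQD values and below the TiO2 values. ANLN rose by 0.24 ± 0.07 under TiO2 (limma adjusted p = 0.0273), and its value of 0.18 under BPQD passed without that control library, on a TPM scale and without the genes like ribosomal RNA, and in no other setting. RACGAP1 had 0.11 and 0.10. PRC1, the microtubule bundler of the midzone, was at 37.5, 36.1 and 32.3 FPKM in control, at 41.4, 42.6 and 38.9 under BPQD and at 20.01, 41.9 and 40.9 under TiO2. An overlapping gene on the same strand, AC068831, was at 25.1 FPKM in that first TiO2 library and at 11.98 to 14.1 in the other 8. PRC1 had 0.21 and -0.11 (limma adjusted p = 0.535 and 0.761), and without the first TiO2 library its TiO2 value was 0.23 (adjusted p = 0.0417). Whether reads moved between PRC1 and its overlapping gene was not tested.

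Of the 4 spindle assembly genes, 3 rose under BPQD, and under TiO2 2 rose and 1 fell. HMMR, which shapes spindle poles, was at 17.8, 17.4 and 18.2 FPKM in control, at 25.3, 24.1 and 23.9 under BPQD and at 19.7, 20.7 and 19.4 under TiO2. DLGAP5, which stabilises microtubules near chromosomes, was at 25.6, 24.9 and 24.6 FPKM in control, at 32.3, 32.2 and 30.3 under BPQD and at 28.3, 30.5 and 29.7 under TiO2. ASPM, a spindle pole protein, was at 22.0, 21.3 and 22.0 FPKM in control, at 25.99, 25.1 and 25.9 under BPQD and at 19.5, 20.4 and 19.6 under TiO2. BPQD libraries were the highest for HMMR and ASPM, and the TiO2 libraries were above control for HMMR and DLGAP5 and below it for ASPM. HMMR rose by 0.43 ± 0.04 under BPQD (36.9% in mean FPKM, limma adjusted p = 7.37e-05) and by 0.15 ± 0.04 under TiO2 (adjusted p = 0.0117). DLGAP5 rose by 0.32 ± 0.04 and 0.23 ± 0.04 (limma adjusted p = 0.000365 and 0.0026), and the materials differed by 0.10 (adjusted p = 0.0766). ASPM rose by 0.23 ± 0.03 under BPQD (limma adjusted p = 0.000402), fell by 0.13 ± 0.03 under TiO2 (adjusted p = 0.00824) and differed by 0.35 ± 0.03 between them (adjusted p = 6.4e-05). NUSAP1 had 0.06 and 0.24 and did not pass, and its first TiO2 library was at 96.8 FPKM against 69.2 and 66.7 in the others.

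Condensin, the ring that compacts mitotic chromosomes, rose in 4 of 5 subunits under BPQD, and under TiO2 none rose and 1 fell. NCAPD2, the HEAT-repeat subunit of condensin I, was at 57.6, 56.4 and 54.7 FPKM in control, at 59.6, 61.2 and 62.0 under BPQD and at 46.7, 45.1 and 47.1 under TiO2. All 3 groups stood apart, with TiO2 well below the other groups. NCAPD2 rose by 0.11 ± 0.03 under BPQD (limma adjusted p = 0.013) and fell by 0.27 ± 0.03 under TiO2 (adjusted p = 0.00027). The materials differed by 0.39 ± 0.03 (limma adjusted p = 4.78e-05), the largest difference between them among the 53. NCAPG rose by 0.26 ± 0.05 under BPQD (limma adjusted p = 0.00409), SMC2 by 0.18 ± 0.06 (adjusted p = 0.042) and SMC4 by 0.10 ± 0.03 (adjusted p = 0.0467), with 0.12, 0.06 and 0.0049 under TiO2. The calls of SMC4 and SMC2 were lost in 10 and 8 of 20 other settings of the test, with adjusted p up to 0.136 and 0.103, while those of NCAPD2 and NCAPG held in all 20. Of the 3 other condensin subunits, under BPQD NCAPH2 fell by 0.25 and NCAPG2 by 0.07, and NCAPD3 had 0.03 and was not called. NCAPH had 0.10 and -0.02 and did not pass.

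**Figure D4:**
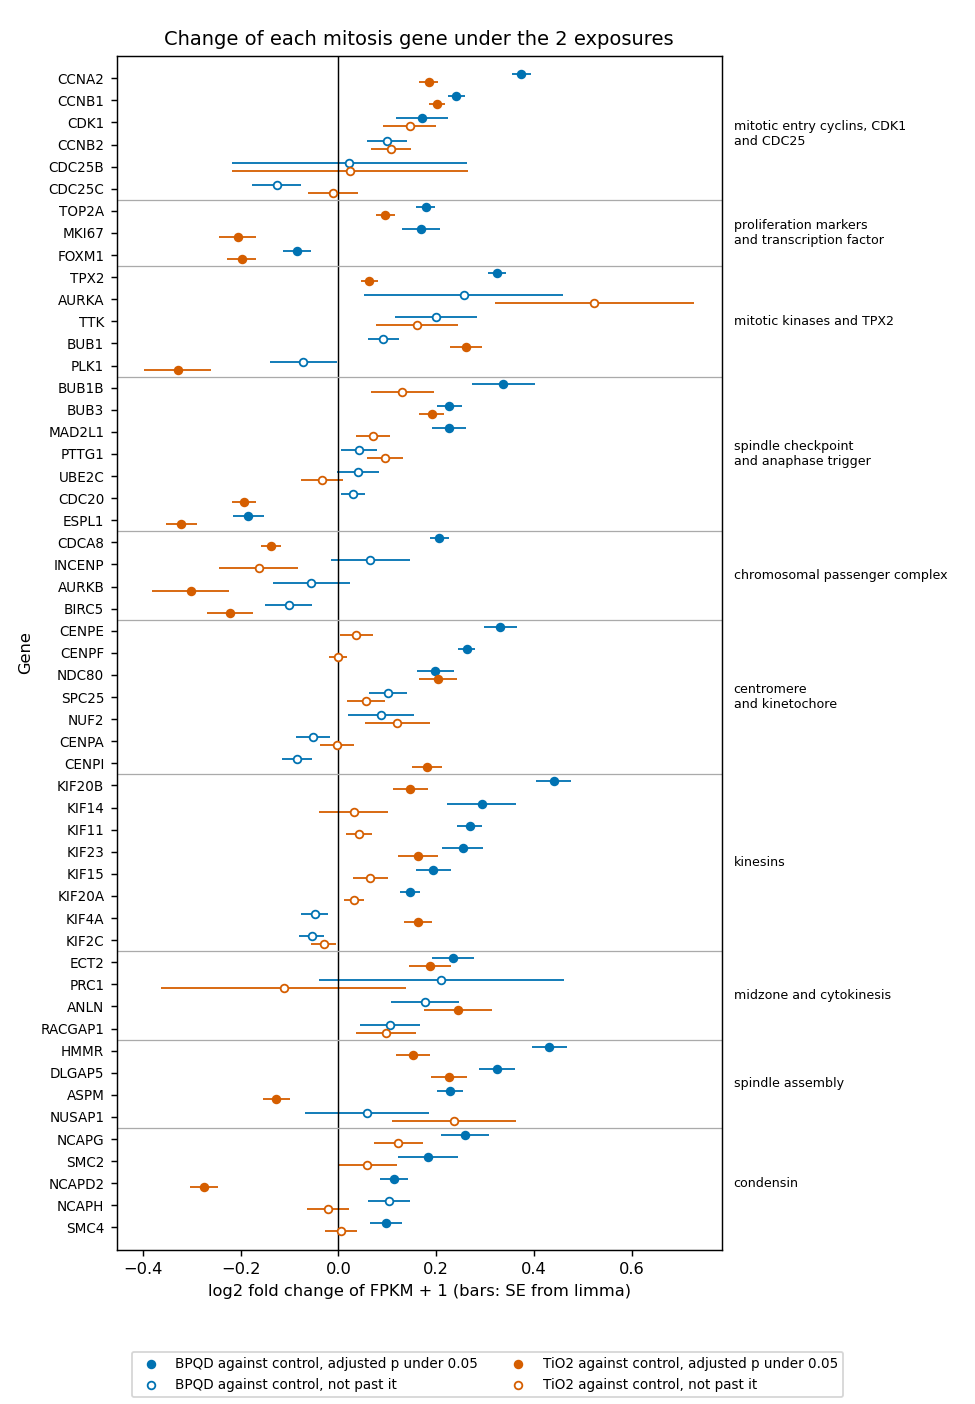
Log2 fold change of FPKM + 1 against control for each of the 53 genes, under BPQD (blue) and TiO2 (orange), with the SE from limma as bars, grouped by role. Filled points passed an adjusted p of 0.05. KIF20B and HMMR lie farthest right under BPQD (0.44 and 0.43), PLK1 and ESPL1 lie farthest left under TiO2 (-0.33 and -0.32), and the open AURKA point under TiO2 (0.52) has a wide bar.

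Most calls held in each of 20 other settings of the test (scalings, filters, offsets, 1 library left out): 25 of 29 under BPQD, 21 of 25 under TiO2 and 19 of 25 between the materials. The calls lost somewhere under BPQD were FOXM1, SMC4, SMC2 and CDK1. SMC4 lost its call when any 1 control library, any 1 BPQD library or the first TiO2 library was left out, with values of 0.08 to 0.16 and adjusted p up to 0.136 over all settings. SMC2 lost it without control 1 or 2, any 1 BPQD library or TiO2 2 (0.12 to 0.25, adjusted p up to 0.103), and CDK1 without control 1 or 2 or BPQD 1 (0.12 to 0.23, up to 0.102). FOXM1 lost it without control 1 or 3, any 1 BPQD library, or TiO2 1 or 3 (-0.10 to -0.03, up to 0.419). Under TiO2, ANLN lost its call without control 2 or 3 or any 1 TiO2 library (0.19 to 0.33, adjusted p up to 0.0849), TPX2 without control 1 or 2 or TiO2 1 or 2 (0.05 to 0.11, up to 0.103), KIF23 without control 2 or 3 or TiO2 2 (0.13 to 0.19, up to 0.0591) and AURKB without control 1 or 2 or TiO2 1 or 3 (-0.38 to -0.26, up to 0.0615).

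Between the materials, FOXM1 lost its call without BPQD 1 or 2 or TiO2 2 (0.10 to 0.16 over all settings, limma adjusted p up to 0.0561), KIF14 without BPQD 1 or 3 or TiO2 2 (0.21 to 0.32, up to 0.0713) and PLK1 without BPQD 3 or TiO2 2 or 3 (0.20 to 0.31, up to 0.0643). BUB1B lost it without control 1, BPQD 2 or 3 or TiO2 1 or 3 (0.17 to 0.26, limma adjusted p up to 0.11), KIF15 without BPQD 1 or 2 or TiO2 1 or 2 (0.12 to 0.18, up to 0.0745) and AURKB when any 1 library other than BPQD 1 or TiO2 2 was left out (0.20 to 0.32, up to 0.122). In the other direction, 10 of 24 uncalled members passed in at least 1 setting under BPQD, 7 of 28 under TiO2 and 9 of 28 between the materials. Under BPQD these include BUB1 in 6 settings, SPC25 in 5 and NCAPH in 4. Under TiO2, AURKA passed only without the first TiO2 library (0.67, limma adjusted p = 0.0497), and did not pass at 0.27 without the third.

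The scaling bears on these counts. Among all called genes, 46.9% were higher under BPQD, but 58.3% on a TPM scale and 56.1% without the genes like ribosomal RNA, and for BPQD against TiO2 50.5% became 60.5% and 60.2%. Under TiO2 the share was 45.8%, and 51.1% after quantile normalization. For the members, BPQD gave 34 higher and 1 lower on the TPM scale, 33 and 1 without the genes like ribosomal RNA, and 27 and 1 after quantile normalization.

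Genes of mitosis outside the 53 were read from 9 lists with 163 different symbols, of which 162 were tested. CEP55 stands in both the centrosome and the cytokinesis list. KIF10, an older name of the member CENPE, was not matched. Under BPQD 53 rose and 24 fell (median 0.07), and under TiO2 38 rose and 31 fell (median 0.02). These are 32.7% and 14.8% under BPQD, beside 20.6% and 23.4% of all genes tested, and 23.5% and 19.1% under TiO2, near the 17.3% and 20.5% of all genes tested. Among genes that averaged 5 FPKM or more, 26.4% rose and 27.4% fell under BPQD, and 24.7% and 24.0% under TiO2. With that filter 70 genes of these lists were called either way under BPQD and 62 under TiO2. How many genes of the lists passed the filter is not given here, so these counts cannot be set beside those shares. Cohesin, which holds sister chromatids together, rose in 9 of 16 genes under BPQD with none falling, among them SMC3 (0.35 ± 0.02), NIPBL (0.29 ± 0.02) and WAPL (0.29 ± 0.05). Under TiO2 4 of 16 rose, SMC3 by 0.22 the most, and CDCA5 and RAD21 fell, by 0.19 and 0.07. Between the materials 8 of 16 were higher under BPQD and none lower.

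Among 18 regulators of the late cell cycle wave (MuvB, B-MYB and E2F genes), 2 rose and 4 fell under BPQD (11.1% and 22.2%), and 3 rose and 4 fell under TiO2 (16.7% and 22.2%). The shares that fell were near those of all genes tested (23.4% and 20.5%), and 12 and 11 of the 18 were not called. MYBL2, which encodes B-MYB, was at 244 ± 1.18 FPKM in control (SD, n = 3), 189 ± 2.49 under BPQD and 181 ± 5.53 under TiO2. It fell by 0.36 and 0.43 (limma adjusted p = 2.85e-05 and 1.81e-05). E2F1, an activator of S phase genes, fell by 0.32 and 0.33, from 25.8 ± 0.950 FPKM to 20.5 ± 1.07 and 20.4 ± 0.687. E2F2 fell by 0.58 under TiO2 (limma adjusted p = 0.000191) and was 0.46 higher under BPQD than under TiO2 (adjusted p = 0.00056), and RBL1 rose by 0.35 under BPQD.

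Of the anaphase-promoting complex and its partners, 5 of 17 rose and 2 fell under BPQD (29.4% and 11.8%). Under TiO2, 5 rose and 3 fell (29.4% and 17.6%). Of all genes tested, 20.6% rose and 23.4% fell under BPQD, and 17.3% rose and 20.5% fell under TiO2. The rising shares of this list are near those of genes that averaged 5 FPKM or more, 26.4% under BPQD and 24.7% under TiO2. ANAPC1 (0.36), CDC23 (0.30) and CDC16 (0.25) rose under BPQD, with UBE2S at -0.27 and FZR1 at -0.21 falling, and CDC16 (0.28) and CDC26 (0.27) rose under TiO2 while ANAPC2 fell by 0.33. Among 33 other centromere and kinetochore genes, 13 rose and 6 fell under BPQD (39.4% and 18.2%), among them BORA (0.31) and DSN1 (-0.28). Under TiO2, 9 rose and 7 fell (27.3% and 21.2%), led by MIS18A (0.27) and CENPO (-0.94). CENPO was at 12.3 ± 4.0 FPKM in control, a wide spread, and at 5.74 ± 0.895 under TiO2. Of 21 entry kinases and phosphatases, 7 (33.3%) rose and none fell under BPQD, among them WEE1, the inhibitor of CDK1 (0.52), and PPP1CC (0.38). Under TiO2, 6 rose and 2 fell (28.6% and 9.52%), with PPP1CC at 0.37 and HASPIN at -0.23.

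In the centrosome list of 31 genes, 9 rose and 6 fell under BPQD (29.0% and 19.4%), and 5 rose and 5 fell under TiO2 (16.1% each), shares close to those of all genes tested (20.6% and 23.4%, and 17.3% and 20.5%). TUBG1, gamma-tubulin, fell by 0.49 under BPQD, from 59.1 ± 2.16 to 41.7 ± 1.27 FPKM (limma adjusted p = 0.000177), and CDK5RAP2 rose by 0.40. HAUS6, of the augmin complex, rose by 0.32 and 0.42, and HAUS2 rose by 0.97 and HAUS5 fell by 0.39 under TiO2. Of the 8 other kinesins tested, KIF18A, KIF2A and KIF3B rose under both, and KIF22 and KIFC1 fell under both. KIF18B rose by 0.10 under BPQD and fell by 0.40 under TiO2, a difference of 0.50 (limma adjusted p = 9.7e-06). The condensin II subunit NCAPH2 also fell under TiO2, by 0.25. In cytokinesis, CEP55 rose by 0.21 and 0.40 and VPS4A fell by 0.19 and 0.26, and of the 16 genes 5 rose and 2 fell under BPQD and 4 rose and 4 fell under TiO2.

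For m6A, the authors' deposited tables give differential peaks for each material against control, with a log2 fold change of m6A enrichment and a p-value per peak, and no value per library. Peaks in genes tested for expression are counted here, with a peak called where the authors' p is under 0.05. The BPQD table held 48 peaks in 29 of the 53 members, and that for TiO2 held 37 peaks in 23. Of the members 54.7% and 43.4% had a peak, beside 53.6% and 50.3% of all genes tested. In the authors' deposited table for BPQD 19 of 48 peaks were called higher (39.6%) and 16 lower (33.3%), beside 40.1% and 32.1% of all 10907 peaks, so the members' shares are near the background. In the authors' deposited table for TiO2 13 of 37 were higher (35.1%) and 15 lower (40.5%), beside 43.1% and 27.3% of all 9524 peaks. Called peaks stood in 23 members under BPQD and in 18 under TiO2. The share of all genes with a called peak is not given here, so these counts have no background.

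Member peaks lay most often in 3′ UTRs, 45.8% in the BPQD table and 51.4% in the TiO2 table, beside 48.7% and 49.9% of all peaks, with 29.2% and 29.7% in other exons beside 22.8% and 20.2%. Both tables use the control libraries, so a shared position is only a description: 27 of the 48 BPQD peaks (56.2%) overlapped a TiO2 peak of the same gene by at least 1 base, and 24 of the 37 TiO2 peaks (64.9%) overlapped a BPQD peak. The same overlap over all peaks is not given here. A peak entry can span introns, and the width of the entries in members ran from 60 to 15893 bases under BPQD and from 60 to 21044 under TiO2. The tables name no strand or build, and their coordinates match GRCh38 by gene position.

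**Figure D5:**
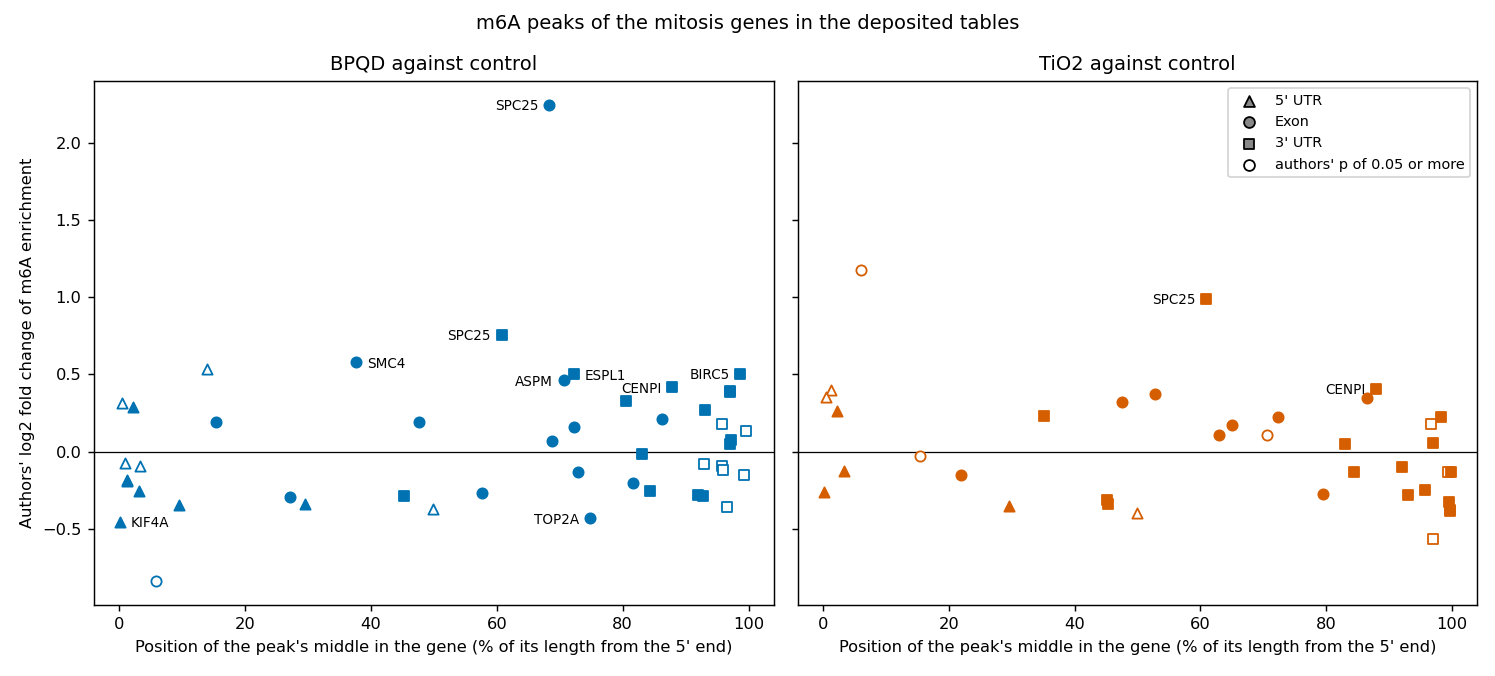
Each m6A peak of the mitosis genes in the authors' deposited tables, by the place of its middle in the gene (horizontal axis, % of the gene's length from the 5′ end) and the authors' log2 fold change of m6A enrichment (vertical axis). Shapes give the annotation and open symbols a p of 0.05 or more. Gene ends are those of the expression table, where the start of SPC25 lies 22941 bases from its RefSeq start. Called peaks of at least 0.4 either way are named, and most others lie between -0.4 and 0.4.

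Several members had the same peak in both tables. TOP2A, whose RNA rose under both materials, had a lower peak in exon 28, at chr17:40395457-40396380, with a log2 change of -0.43 (p = 2e-32) in the authors' deposited table for BPQD, and one of -0.28 (p = 1e-18) at chr17:40392716-40396410 in that for TiO2. That was the smallest p among the BPQD peaks of members. CENPF had a lower 3′ UTR peak in both of the authors' deposited tables, with -0.28 (p = 5.01e-32) under BPQD and -0.098 (p = 1.91e-05) under TiO2. Upstream, CENPF peaks were called at -0.35 in the 5′ UTR, 0.066 in exon 11 and -0.20 in exon 16 for BPQD, and 0.17 in exon 10 for TiO2, in the authors' deposited tables. CENPI had a higher 3′ UTR peak at chrX:101147789-101163681, with 0.42 (p = 1e-11) for BPQD and 0.41 (p = 2.51e-13) for TiO2 in the authors' deposited tables, and its RNA level was called higher under TiO2 and not called under BPQD.

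Among the kinesins, peaks were higher in both of the authors' deposited tables for KIF20B (0.19 and 0.32, exon 18), KIF11 (0.21 and 0.35, exon 18) and KIF14 (0.29 and 0.26, 5′ UTR), the BPQD value first. KIF4A had a lower 5′ UTR peak for BPQD (-0.46, p = 0.0417) in the authors' deposited table, at a place that PDZD11 shares. In exon 18 of ASPM, 2 peaks were called at 0.46 and 0.16 for BPQD, and for TiO2 the matching values in the authors' deposited table were 0.11 (p = 0.0513) and 0.23. CENPE had -0.27 in exon 31 for BPQD, and 0.37 in exon 25 and 0.22 in the 3′ UTR for TiO2, in the authors' deposited tables, so these were different stretches of the gene.

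Of the markers and kinases, MKI67 showed small changes, with -0.018 (p = 0.0479) for BPQD and 0.048 (p = 2.57e-06) for TiO2 in a wide peak annotated to its 3′ UTR, and 0.11 in exon 12 for TiO2, in the authors' deposited tables. FOXM1 had 0.19 (p = 1.51e-10) in exon 2 for BPQD in the authors' deposited table, and -0.030 (p = 0.171) for TiO2. TPX2 had 0.051 and 0.058 at the same 3′ UTR peak and -0.13 in a second for TiO2, and AURKA had 0.072 for BPQD, in the authors' deposited tables. PLK1 had 1 uncalled peak in each of the authors' deposited tables (-0.84 with p = 0.31, and 1.18 with p = 0.189), outside the RefSeq gene. CDC20 had 1 uncalled peak in each of the authors' deposited tables, with -0.15 (p = 0.167) and -0.13 (p = 0.199). CCNA2, CCNB1, CDK1, AURKB, HMMR, DLGAP5, BUB1, ANLN and NDC80 were among the 23 members with no peak in either of the authors' deposited tables.

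In the passenger complex, CDCA8 had a lower 3′ UTR peak (-0.26 and -0.13), INCENP had -0.13 in exon 11 for BPQD and -0.16 in exon 4 for TiO2, and BIRC5 had higher 3′ UTR peaks for BPQD (0.27 and 0.50), in the authors' deposited tables. Near anaphase, ESPL1 had a higher 3′ UTR peak for BPQD (0.50, p = 0.000166), PTTG1 a lower 5′ UTR peak (-0.25 and -0.13), and CDC25C a lower 3′ UTR peak for TiO2 (-0.33), in the authors' deposited tables. SPC25 had opposite changes in peaks annotated to its UTRs, in both of the authors' deposited tables. These were -0.34 and -0.35 in the 5′ UTR, and 0.76 and 0.99 in the 3′ UTR. The middles of the BPQD peaks lay 29.5% and 60.8% along the gene as the expression table bounds it, and so not at its ends. Another SPC25 entry for BPQD (2.25, p = 0.024) in the authors' deposited table carries the annotation of another gene and lies outside SPC25 in RefSeq.

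In the condensin subunits and CENPA, several entries overlap each other or a neighbouring gene. SMC4 had a lower peak at chr3:160414379-160416441 in the authors' deposited table for BPQD (-0.29, p = 1.45e-10), and the TiO2 value was -0.31 (p = 1.58e-11). For BPQD, SMC4 also had 2 nearly identical 5′ UTR entries (-0.19 and -0.19) and 0.58 in exon 7, and SMC2 had -0.30 in exon 9, in the authors' deposited table. NCAPG had -0.29, 0.38 and 0.39 for BPQD, the last pair being nearly the same stretch, and -0.26, -0.28 and -0.25 for TiO2 in the authors' deposited tables, all but the 5′ UTR peak at -0.26 in a 3′ UTR that LCORL overlaps. CENPA had 0.33 in its 3′ UTR for BPQD, and its TiO2 entries in the authors' deposited table, 0.23 and -0.34, lie in the overlapping gene SLC35F6 and outside CENPA in RefSeq. TOP2A had another pair of nearly identical 3′ UTR entries for TiO2 in the authors' deposited table (-0.38 and -0.39). Merging such overlapping entries left 33 called peaks of 44 for BPQD and 27 of 36 for TiO2.

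Of the 53 members, 28 overlap another gene of the expression table, and 13 overlap one that averaged 1 FPKM or more. Among those named above with a pattern, KIF4A shares 411 bases with PDZD11 on the other strand, NCAPD2 shares 486 bases with MRPL51 (113 FPKM on average) on the other strand, CCNA2 shares 578 bases with EXOSC9, and FOXM1 shares its ends with ITFG2 and RHNO1. Whether the authors' counting used strand is not given in the sources used here, so reads of such partners may not be told apart. MRPL51 stood at 110 to 112 FPKM in control, 105 to 109 under BPQD and 121 to 122 under TiO2, where NCAPD2 was lowest.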

How the data were processed

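Gene levels came from 9 input RNA-seq libraries, as FPKM per gene that the authors deposited, and m6A from differential peaks in the authors' deposited tables, which give each peak a log2 fold change, a p-value and a score, the log10 of an FDR per the file headers. HISAT2 and StringTie 1.3.0 are named in the submitters' processing notes, which also list the build mm10. The gene IDs are human, and of 24557 symbols 99.1% lay within 5000 bases of their place in GRCh38.p14. The sources used here do not give the peak caller or say whether replicates were pooled.

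The members and all gene lists were chosen with earlier results of these data known. Genes that averaged 1 FPKM or more were tested as log2(FPKM + 1) with limma 3.58.1 (R 4.3.3) over all 9 libraries, with a trend in the variance and Benjamini-Hochberg adjustment over the 12224 genes tested, at 0.05. Fold changes are on that scale and understate low genes. The steps were tested on simulated data. Depth is unknown, so no counting interval is given. Values in every library are printed for 10 central genes and, per comparison, the 4 called members with the largest rise and fall whose groups did not overlap. CENPE, TPX2, PRC1, NUSAP1 and CDC25B were added after their values were seen, as was AC068831. From other lists, up to 3 called genes each way are named. The labels do not say whether replicate numbers pair the libraries, and the main test did not pair them. Another 12 columns of per-sample values were not used. Promoter windows are from RefSeq, matched by symbol. Alternatives covered the pseudocount, the filter, the scaling, the block and each library left out.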

Additional observations from a re-analysis of the deposited data

How the results depend on the processing

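The 27 members called higher and 2 called lower under BPQD became 1 lower with no filter, TPM, median centring, quantile normalization, the genes like ribosomal RNA left out, the replicate block or no trend in the variance, FOXM1 being the call lost, with 1 to 2 lower when 1 library was left out. With 1 library left out, 24 to 27 members were higher under BPQD, 12 to 16 higher and 9 to 11 lower under TiO2, and 19 to 22 higher and 3 to 4 lower under BPQD against TiO2. For genes averaging 5 FPKM or more, fewer genes were tested and 3495 genes were called in BPQD vs control (5384 at 1 FPKM) and 2832 in BPQD vs TiO2 (4596 at 1 FPKM). With the replicate block, 25 and 1, 15 and 10, and 21 and 3 members were called higher and lower in the 3 comparisons, and 4996, 4160 and 4150 genes in all. Libraries with the same number had deviations that correlated between -0.083 and 0.073, so no shared effect of the number was seen. That cannot tell whether such libraries were made together, which the labels do not say. 

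In BPQD vs control, these uncalled log2 differences changed sign: on the TPM scale KIF4A 0.0057, KIF2C 0.00080. In TiO2 vs control, these uncalled log2 differences changed sign: on the TPM scale CENPA 0.013, CENPF 0.015, CDC25C 0.0032, and with median centring CENPA 0.0036, CENPF 0.0058, and with quantile normalization KIF20A -0.0062, SMC4 -0.013, CENPA 0.0046, and without the genes like ribosomal RNA CENPA 0.0016, CENPF 0.0042. In BPQD vs TiO2, these uncalled log2 differences changed sign: on the TPM scale NDC80 0.034, CDC25B 0.038, KIF2C 0.015, NUF2 0.0030, CCNB2 0.033, and with median centring NDC80 0.011, CDC25B 0.015, CCNB2 0.0093, and with quantile normalization NDC80 0.0091, CDC25B 0.024, KIF2C 0.033, CCNB2 0.013, and without the genes like ribosomal RNA NDC80 0.034, CDC25B 0.037, KIF2C 0.015, NUF2 0.0023, CCNB2 0.032. With 1 library left out, the range of values that crossed 0 was in BPQD vs control CDC25B -0.19 to 0.17, AURKB -0.096 to 0.013; in TiO2 vs control CDC25B -0.16 to 0.17, SMC4 -0.019 to 0.037, CENPA -0.032 to 0.012, CENPF -0.0074 to 0.0085, KIF14 -0.0066 to 0.089, CDC25C -0.042 to 0.043, PRC1 -0.29 to 0.23; in BPQD vs TiO2 NDC80 -0.029 to 0.029, CDC25B -0.22 to 0.18, TTK -0.035 to 0.11, NUF2 -0.089 to 0.022, CCNB2 -0.031 to 0.020, RACGAP1 -0.046 to 0.057, CDK1 -0.029 to 0.054, PRC1 -0.015 to 0.50. Of these, only PRC1 under TiO2 passed the test with its sign changed, without the first TiO2 library, at 0.23. The cause was not tested. 

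Of the member peaks called at p under 0.05 in the authors' deposited tables (35 for BPQD and 28 for TiO2), 28 and 24 were called at 0.01, 27 and 22 at an FDR of 0.05, and 27 and 22 were called and at most 5000 bases wide. The merging of overlapping entries, which left 33 and 27, was chosen after seeing the data. With an overlap of 50% required, 24 of the 27 shared peaks were still counted as shared. Depth is unknown, and 3 libraries a group limit the precision. The peak values have no error of their own here, since the tables hold none per library.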
